A study of Equus caballus with 26 samples.

Results

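The NADH dehydrogenase genes carried by mitochondrial DNA, ND1, ND2, ND3, ND4, ND4L, ND5 and ND6, were followed in the blood of horses before and after an endurance ride. They were chosen by the gene name that the scanner files give to each probe, and they are 7 of the 24415 gene names on the array. Whole blood mRNA was measured on a custom equine Agilent array of 1 colour in 26 samples of 23 horses. The experimental set, labelled training, held 3 geldings (horses 2, 32 and 41), each sampled at T0, before a ride of 160 km, and at T1, after it. The validation set held 7 horses sampled at T0 (3 females and 4 geldings) and 13 other horses sampled at T1 (3 females and 10 geldings). All samples were unsorted blood collected in tubes that preserve RNA, and the labels give a single breed entry for all horses and no individual age. The methods state that the horses sampled only at T0 included animals that did not finish the ride and that those sampled only at T1 completed it, so in the validation set time and finishing cannot be told apart. Horses were the replicates in both sets.

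Complex I is the first enzyme of the respiratory chain: it takes electrons from NADH, passes them to ubiquinone and pumps protons across the inner mitochondrial membrane. Its membrane arm is built around the ND proteins, which are made inside the mitochondrion, while the arm that binds NADH is built from nuclear subunits made in the cytosol. ND2, ND4 and ND5 are the large proton-pumping subunits, ND1 lies next to the ubiquinone site, and ND3, ND4L and ND6 are smaller membrane subunits. Mitochondrial DNA is transcribed as long precursors from both strands, which are then processed into single RNAs. ND6 is the only one of these genes whose mRNA is read from the strand opposite to the others. It lies next to ND5, with which it overlaps at the end, and is followed by the tRNA for glutamate.

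The array carried 14 probes for the 7 genes, 2 for each, in 37 spots, out of 50 mitochondrial probes. Each probe was 50 bases long, and the array's annotation gave them no position on the genome build it used. The letters below are those of the probes on which the results turn, both probes of ND5, ND6 and ND4 and the brightest probe of ND3, as the scanner files give them 5′ to 3′, with each G in capitals because ND6 stood apart in it.
ND3 Oligo-259: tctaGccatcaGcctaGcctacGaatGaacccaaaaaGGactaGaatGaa
ND4 Oligo-261: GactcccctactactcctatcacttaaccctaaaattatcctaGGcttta
ND4 Oligo-262: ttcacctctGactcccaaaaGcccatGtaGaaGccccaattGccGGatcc
ND5 Oligo-265: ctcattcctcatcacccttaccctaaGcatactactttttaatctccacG
ND5 Oligo-266: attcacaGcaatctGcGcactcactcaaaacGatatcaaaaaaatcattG
ND6 Oligo-267: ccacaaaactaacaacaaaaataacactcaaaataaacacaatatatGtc
ND6 Oligo-268: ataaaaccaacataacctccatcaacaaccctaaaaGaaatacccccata

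Both ND6 probes held 1 G, against 2 to 9 in the 12 probes of the other 6 genes. As printed, ND6 Oligo-268 had a stop codon of the vertebrate mitochondrial code (TAA, TAG, AGA or AGG) in all 3 reading frames, and its reverse complement had 1 frame without a stop. All 12 probes of the other genes had at least 1 open frame as printed, and ND6 Oligo-267 had 2 open frames on each strand. The labelled cRNA of this assay is complementary to the RNA of the sample, so a probe reads RNA that carries its own letters. The printed letters of Oligo-268, with a stop in each frame, therefore cannot lie wholly within the coding sequence of ND6 mRNA. Those of Oligo-267 are open on both strands and do not tell the strands apart. Whether the signal filed under ND6 comes from ND6 mRNA or from RNA of the opposite strand, on which ND5 is read, was not tested. The name ND6 is used below for the signal of these probes.

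ND5 and ND6 were lower after the ride by close to 1 log2 unit in the validation set, and the other 5 genes changed less and did not pass the test on this scale. Levels are given as log2 signal relative to the 75th percentile of the same array, so that 0 marks that percentile and 1 unit is a 2-fold difference. Each gene is represented by the brighter of its probes, the one with the higher mean over the 26 arrays. In the experimental set ND5 and ND6 were lower at T1 in 3 of 3 horses, which was also true of 25.5% of the 17490 gene names tested.

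ND5, the subunit at the far end of the membrane arm, was measured at 3.13, 3.09 and 2.30 before the ride in horses 2, 32 and 41, and at 1.53, 2.40 and 1.33 after it. All 3 horses were lower after the ride, with differences of -1.60, -0.69 and -0.97, although the level of horse 41 before the ride was below that of horse 32 after it. The estimated change was -1.08 (SE 0.33), or 47.2% of the level before the ride, with an adjusted p of 0.0717 in limma, so it did not pass the threshold of 0.05. In the validation set ND5 ranged from 2.40 through a median of 2.96 to 3.43 at T0, and from 0.87 through 2.09 to 2.69 at T1. The 2 groups overlapped, but 10 of the 13 horses at T1 lay below the lowest horse at T0 and all 13 lay below the T0 median. The change was -0.90 (SE 0.21, 95% interval -1.33 to -0.47), or 53.5% of the T0 level, with an adjusted p of 0.00145 in limma.

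ND6 was measured at 2.25, 2.32 and 1.30 before the ride in horses 2, 32 and 41, and at 0.97, 1.60 and 1.01 after it. All 3 horses were again lower after the ride, with differences of -1.27, -0.72 and -0.29, and horse 41, which had the lowest level before the ride, had the smallest difference. The estimate of -0.76 (SE 0.34) had an adjusted p of 0.169 in limma and did not pass the threshold. In the validation set ND6 ranged from 1.77 through 2.12 to 3.09 at T0 and from 0.23 through 1.44 to 2.25 at T1. The groups overlapped, and 11 of the 13 horses at T1 lay below the lowest horse at T0. The change was -0.87 (SE 0.21, 95% interval -1.31 to -0.43), or 54.7% of the T0 level, with an adjusted p of 0.0024 in limma.

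The 2 members called, both lower at T1, stand beside 23.9% of the 17404 gene names called lower and 20.3% called higher at T1 in the validation set (44.2% in either direction). These 2 may not be separate readings, because which strand gives the ND6 signal was not tested. No member was called in the experimental set, where 3.95% of gene names were called lower and 6.16% higher (10.1% in either direction). The higher calls made up 60.9% of all calls there, and 48.2%, 49.5% and 47.5% after normexp with quantile normalization, after quantile normalization and in the deposited series values. No member was among the 0.758% of gene names whose T1 arrays all lay below every T0 array of the validation set. The median change of the 7 members was -0.36 in both sets, beside -0.07 over all gene names tested in the validation set and 0.03 in the experimental set.

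ND4, one of the proton-pumping subunits, had the next largest change in the validation set. It ranged from 5.19 through 5.83 to 6.06 at T0 and from 4.48 through 5.18 to 6.15 at T1 in the validation set, and 12 of 13 horses at T1 lay below the T0 median. The change was -0.42 (SE 0.18), with an adjusted p of 0.0557 in limma. Among the experimental horses, horse 2 differed by -0.997, horse 32 by -0.18 and horse 41 by 0.17. The estimate there was -0.34 (SE 0.35, adjusted p 0.552 in limma).

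ND4L, a small membrane subunit, ranged from 2.31 through 3.23 to 4.00 at T0 and from 1.59 through 2.82 to 3.91 at T1 in the validation set. The groups overlapped over most of their range, and the change of -0.36 (SE 0.27) had an adjusted p of 0.303 in limma. The differences of experimental horses 2, 32 and 41 were -1.15, 0.47 and -0.45, so the horses did not move together.

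ND3, a small subunit beside the ubiquinone pocket, ranged from 4.41 through 5.07 to 5.49 at T0 and from 3.83 through 4.85 to 5.38 at T1. The change of -0.24 (SE 0.21) had an adjusted p of 0.355 in limma, and 2 of the 13 horses at T1 lay below the lowest horse at T0. From T0 to T1 ND3 differed by -1.29 in experimental horse 2, by 0.28 in horse 32 and by -0.07 in horse 41.

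ND1 ranged from 3.81 through 4.60 to 4.96 at T0 and from 3.17 through 4.15 to 5.41 at T1 in the validation set, where its change was -0.29 (SE 0.25, adjusted p 0.367 in limma). ND2 ranged from 3.16 through 3.27 to 3.57 at T0 and from 2.80 through 3.14 to 3.85 at T1, and its change was -0.18 (SE 0.14, adjusted p 0.303 in limma). Both genes had the highest single value of the validation set at T1, not at T0. The experimental horses again did not move together: ND1 and ND2 differed by -0.90 and -0.41 in horse 2, by 0.46 and 0.44 in horse 32 and by 0.03 and 0.26 in horse 41.

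**Figure D1:**
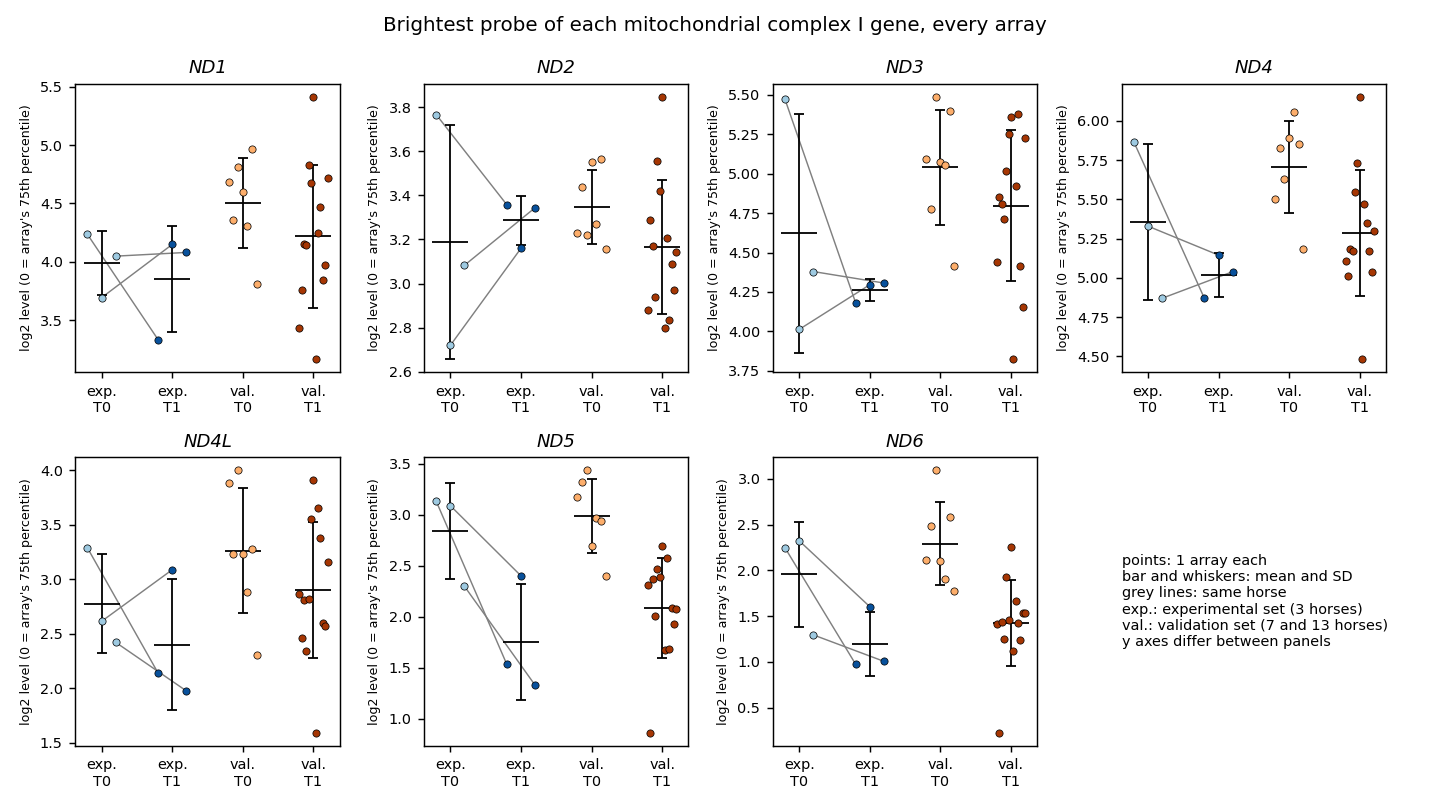
Log2 level of the brightest probe of each gene on every array (0 is the array's 75th percentile), with the mean and SD of each group and lines joining the 2 samples of a horse in the experimental set; the y axes differ between panels. ND5 and ND6 are lower at T1 in all 3 experimental horses, and 10 and 11 of the 13 validation horses at T1 lie below the lowest T0 horse.

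How many members were called depended on the scaling. After normexp background correction with quantile normalization, after quantile normalization alone, and in the deposited series values, ND1, ND2, ND3 and ND4 also passed in the validation set, with changes between -0.33 for ND2 and -0.67 for ND4, while ND4L did not pass under any of them. ND5 and ND6 passed under all 31 alternatives run for the validation set, with changes from -1.05 to -0.72 for ND5 and from -0.98 to -0.74 for ND6. Of these alternatives, 20 were refits that left out 1 horse and are close to each other. ND5 passed in the experimental set under these 3 scalings, with changes of -1.25, -1.33 and -1.28, and when only gene names clear of background on all 6 arrays were tested. All 7 members kept a change below 0 in the validation set under all 31 alternatives, but ND2 turned from 0.10 to between -0.16 and -0.05 in the experimental set under the 3 other scalings.

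Across the 4 groups the mean was highest in validation T0 for all 7 genes, and for ND4, ND5 and ND6 it was followed by experimental T0, validation T1 and experimental T1. For ND5 these means were 2.99, 2.84, 2.09 and 1.76, with SDs of 0.36, 0.47, 0.49 and 0.57. For ND6 they were 2.29, 1.96, 1.42 and 1.20, with SDs of 0.46, 0.57, 0.47 and 0.35. For both genes the groups of the same time lay closer than their SDs, and the step from experimental T0 to validation T1 was wider than any of the SDs for ND5 but not for ND6. For ND1, ND3 and ND4L validation T1 stood above experimental T0, and in these 3 and in ND4 neighbours in the order differed by less than the larger of their SDs.

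On the main scale both probes of a gene gave a change of the same sign for 7 of 7 genes in the experimental set. In the validation set they did for 4 of 7, where ND1, ND2 and ND4 each had a dimmer probe near 0. These counts depended on the scaling. After quantile normalization the ND2 probes had opposite signs in the experimental set (-0.16 and 0.01). In the validation set the probes of ND1 (-0.56 and -0.09) and of ND4 (-0.67 and -0.03) then had the same sign. ND4L was the closest pair, with changes of -0.36 and -0.37 in the validation set. ND5 Oligo-265 changed by -0.62 (SE 0.25, adjusted p 0.0445 in limma over 30339 probes) beside -0.90 for Oligo-266, and ND6 Oligo-267 by -0.82 (SE 0.24, adjusted p 0.00692 in limma) beside -0.87 for Oligo-268. All 4 probes of ND5 and ND6 were called lower at T1 in the validation set and none of the other 10, beside 25.9% of all probes called lower. No member probe was called in the experimental set, where 5.34% of all probes were called lower. ND4 Oligo-262 differed most between the sets, with -0.92 (SE 0.46) in the experimental set and 0.02 (SE 0.21) in the validation set, and its level at T0 in the 3 experimental horses ran from -0.08 to 2.67.

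**Figure D2:**
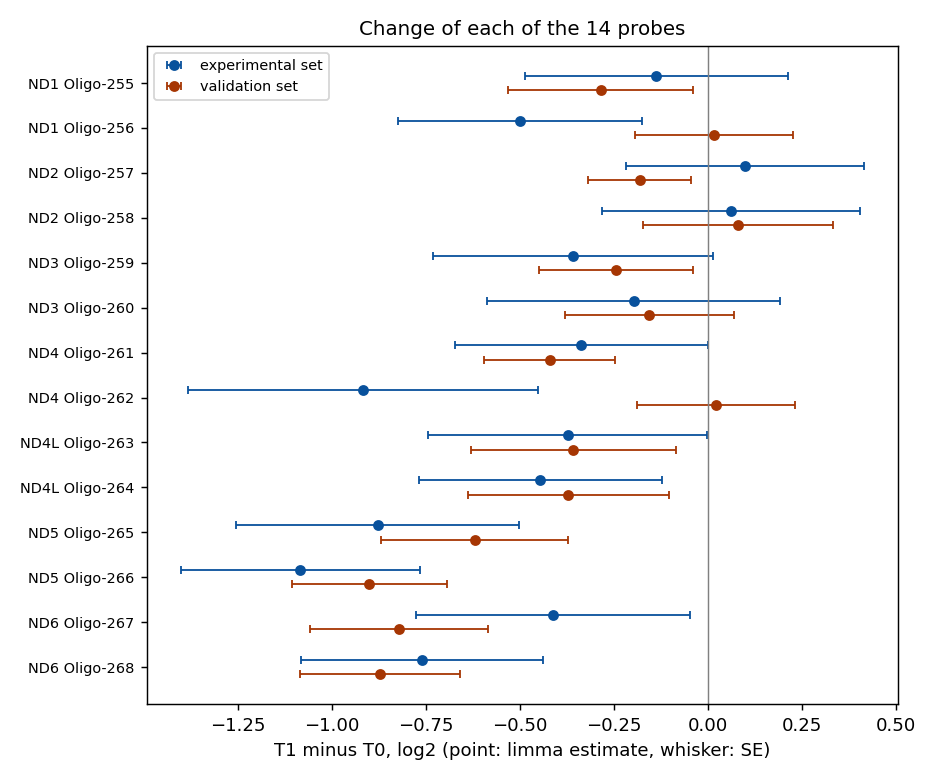
Change from T0 to T1 (log2, limma estimate with its SE as whisker) of each of the 14 probes, in the experimental and the validation set. The 4 probes of ND5 and ND6 lie furthest to the left in the validation set, between -0.90 and -0.62.

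ND6 Oligo-267 was dim: in the validation set its signal was clear of background in all 7 T0 horses and in 7 of the 13 T1 horses, so the size of its change is uncertain, and after normexp with quantile normalization it was -0.12 with an adjusted p of 0.0525. The other 13 member probes were well above background on every array. A probe filed under the accession JL619259 shared 27 bases with ND6 Oligo-267, in the same orientation, and changed by -0.58 (SE 0.16, adjusted p 0.00454 in limma) in the validation set and by -0.71 (SE 0.32, adjusted p 0.171) in the experimental set. ND3 Oligo-260 shared 20 bases with 2 probes filed under CX603299, which were higher at T1 in the validation set, by 0.38 (SE 0.15, adjusted p 0.0455 in limma) and 0.75 (SE 0.18, adjusted p 0.00157), unlike both ND3 probes. No other member probe shared 20 bases with another probe of the array on either strand.

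Across horses the probes of a gene followed each other closely for some genes and not for others. Among the 13 horses at T1, Pearson's r between the probes was 0.98 for ND4L (Spearman's rho 0.98), 0.95 for ND3 (rho 0.94) and 0.92 for ND1 (rho 0.96), with adjusted permutation p of 0.000187 for r in each over the 56 relations computed. It was 0.25 for ND4 (rho 0.41, adjusted permutation p 0.499 for r and 0.237 for rho). For ND5 r was 0.72 (rho 0.62, adjusted permutation p 0.0174 and 0.0501), and 0.46 without the 2 horses farthest from the median. Leaving those horses out also narrows the range, so the lower r cannot show whether the relation rests on them. For ND6 r was 0.54 (rho 0.22, adjusted permutation p 0.115 and 0.59). Among the 7 horses at T0 the ND4 probes had r of 0.89 (rho 0.89, adjusted exact permutation p 0.0265 and 0.0328) and the ND5 probes r of 0.34 (rho 0.32, adjusted exact permutation p 0.525 and 0.606), so for these genes the 2 times gave different pictures, a difference that was not tested.

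Within an array ND3 shifted against ND5 and ND6 on the main scale, but not stably at the threshold. The difference of ND3 minus ND5 went from 2.05 ± 0.33 (SD, n = 7) at T0 to 2.71 ± 0.58 (SD, n = 13) at T1, a shift of 0.66 (exact two-sided permutation p 0.0111, adjusted p 0.0466 over 10 tests). ND3 minus ND6 shifted by 0.63, from 2.75 ± 0.32 to 3.37 ± 0.54 (exact permutation p 0.0104, adjusted 0.0466). ND5 minus ND6 shifted by -0.03, from 0.69 ± 0.30 to 0.66 ± 0.23 (exact permutation p 0.804, adjusted 0.936). Such a difference within an array does not depend on the scaling constant of the array, but a shift in it does not tell which gene moved. The first 2 tests share ND3, and ND5 and ND6 had r of 0.92 over the 26 arrays, so they are not independent. Among the experimental horses ND3 minus ND5 shifted by 0.31, 0.97 and 0.90 in horses 2, 32 and 41, and ND3 minus ND6 by -0.02, 1.004 and 0.22. Neither shift was stable at the threshold: leaving out 1 horse at a time gave values of 0.55 to 0.72 and 0.52 to 0.69, and each adjusted p stayed below 0.05 in 9 of 20 such fits. Both also missed it after normexp with quantile normalization, where they were 0.50 and 0.44, with adjusted p of 0.101 and 0.114.

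**Figure D3:**
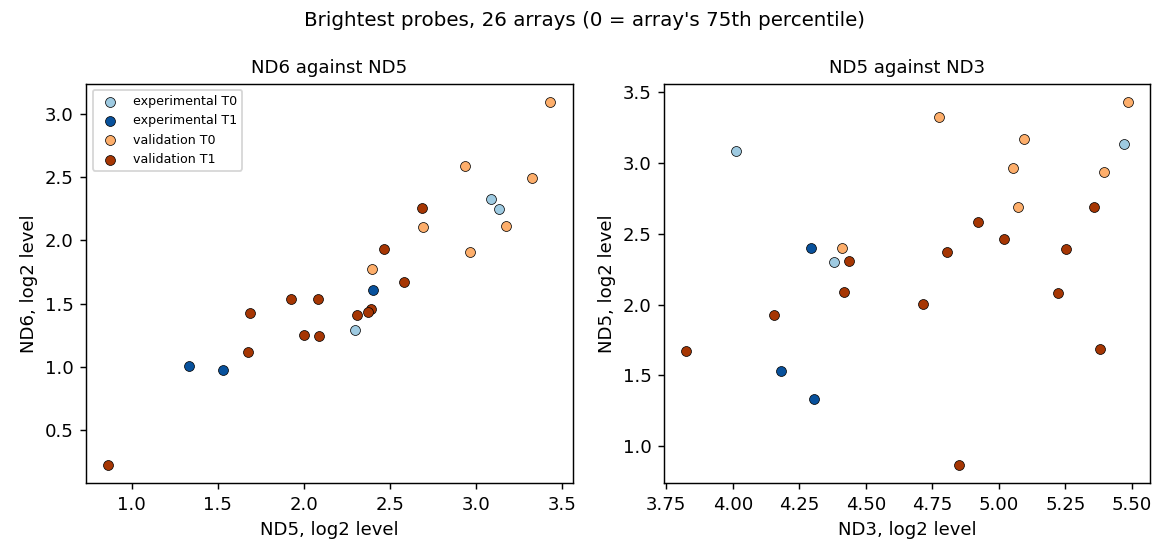
Log2 level of ND6 against ND5 (left) and of ND5 against ND3 (right) on the 26 arrays, with the 4 groups in colour; 0 is the array's 75th percentile. ND5 and ND6 run along 1 line through all groups (Pearson's r 0.92 over all arrays, 0.86 after the group means were removed). At a given ND3 level the T1 arrays tend to have lower ND5, which was not tested. For ND3 and ND5 r is 0.41 over all arrays and 0.31 after the group means were removed.

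ND5 and ND6 were each other's nearest gene name. Over the 26 arrays, among 8084 gene names with a symbol that were well above background on all arrays, ND6 had the highest Pearson's r with ND5, 0.92, and 0.86 after the means of the 4 groups were removed. After ND6 the nearest names to ND5 were SSRP1, TCF3, NARS1 and DCP1B, with r from 0.87 to 0.89, which fell to between 0.71 and 0.77 within groups. After ND5 the nearest to ND6 was the tRNA for glutamate, the next gene along, with r of 0.89 and 0.81 within groups, followed by DDX24, FYCO1 and DCP1B. ND1, ND3 and ND4 had mostly other mitochondrial RNAs as neighbours, with COX2 nearest to ND1 (0.90) and ND3 (0.86) and CYTB nearest to ND4 (0.82) and ND4L (0.84). ND2 had no mitochondrial gene among its 5 nearest, which included IKZF4, SLC16A11, AKT1 and FBXL15, with r from 0.78 to 0.82. These values are descriptions over arrays that share 23 horses and their scaling. Whether ND5 and ND6 are separate readings was not tested, since the ND6 signal may come from RNA of the strand on which ND5 is read.

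Among horses of 1 time the members were related to different degrees. Among the 13 horses at T1, ND5 and ND6 had Pearson's r of 0.88 and Spearman's rho of 0.75 (adjusted permutation p 0.00121 and 0.0206), and r was 0.63 without the 2 horses farthest from the ND5 median, of which horse 4 had the lowest level of both genes. ND3 and ND5 had r of 0.27 (rho 0.40, adjusted permutation p 0.457 and 0.254). By rank, ND4 and ND5 (rho 0.79, r 0.63, adjusted permutation p 0.0136 and 0.0671) and ND1 and ND6 (rho 0.81, r 0.68, adjusted permutation p 0.0101 and 0.0363) stood no lower than ND5 and ND6. ND1 and ND4 had r of 0.91 (rho 0.92, adjusted permutation p 0.0007 and 0.00056), and 0.78 without 2 horses. Of the 21 pairs of members at T1, r passed in 11 and rho in 16, with r from 0.27 to 0.91. Among the 7 horses at T0 r passed in 1 pair and rho in 5, and r for ND5 and ND6 was 0.75 (rho 0.71, adjusted exact permutation p 0.0907 and 0.133), beside 0.81 for ND4L and ND5 (rho 0.75, adjusted exact permutation p 0.0671 and 0.112) and 0.58 for ND3 and ND5 (rho 0.46, adjusted exact permutation p 0.231 and 0.403).

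The other mRNAs of the mitochondrial DNA changed less than ND5 and ND6 in the validation set, a difference between genes that was not tested. CYTB of complex III, COX1, COX2 and COX3 of complex IV and ATP6 and ATP8 of ATP synthase changed by between -0.28 and -0.15 in the validation set, and none of the 6 passed the test, with adjusted p from 0.246 to 0.493 in limma. The ribosomal RNA RNR2 was higher at T1 by 0.64 (SE 0.23, adjusted p 0.025 in limma), and RNR1 differed by 0.29 (SE 0.20, adjusted p 0.263). None of the 8 passed in the experimental set: ATP8 differed by -0.78 (SE 0.39, adjusted p 0.221 in limma) and the others by between -0.32 and 0.30. Of the 8, 1 was called higher and none lower in the validation set, with a median change of -0.23.

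The nuclear core subunits of complex I, which with the ND proteins make up the catalytic core, were called lower at T1 in 4 of 7 cases in the validation set, with a median change of -0.50. Over all gene names tested in that set, 23.9% were called lower. NDUFS8 and NDUFS7, which carry the iron-sulphur clusters nearest to ubiquinone, changed by -0.73 (SE 0.17, adjusted p 0.00171 in limma) and -0.59 (SE 0.13, adjusted p 0.00117). NDUFV1, which binds NADH, changed by -0.65 (SE 0.21, adjusted p 0.0141) and its partner NDUFV2 by -0.45 (SE 0.14, adjusted p 0.0115). None of the 7 passed in the experimental set, where their median change was -0.50. Of the 30 accessory subunits listed, 24 were tested, and 9 were called lower and none higher in the validation set, with a median of -0.41, while none passed in the experimental set.

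**Figure D4:**
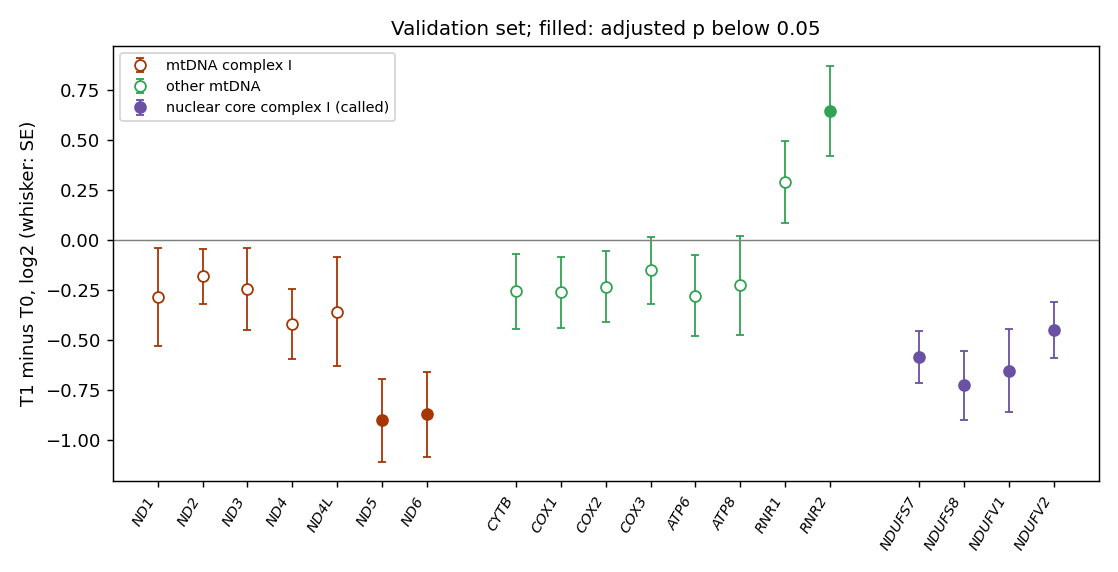
Change from T0 to T1 in the validation set (log2, limma estimate with SE) of the mitochondrial complex I genes, the other mitochondrial mRNAs and rRNAs and the 4 nuclear core subunits of complex I that passed the test; filled points have an adjusted p below 0.05. ND5 (-0.90) and ND6 (-0.87) are the lowest points, and RNR2 (0.64) is the highest.

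Set against the mean of the 7 nuclear core subunits on the same array, ND5 shifted by -0.49, from 0.26 ± 0.24 (SD, n = 7) to -0.23 ± 0.48 (SD, n = 13), with an exact permutation p of 0.014 (adjusted 0.0466). It went the same way in 3 of 3 experimental horses, by -0.90, -0.35 and -0.57. ND6 shifted by -0.46 (exact permutation p 0.0516, adjusted 0.129), and by -0.57, -0.39 and 0.11 in the experimental horses. ND1, ND2, ND3, ND4 and ND4L shifted by between -0.01 and 0.23, with adjusted p from 0.185 to 0.964. The ND5 shift stayed below 0.05 in 7 of the 20 fits that left out 1 horse, with values from -0.53 to -0.38, and missed it after normexp with quantile normalization (-0.45, adjusted p 0.101).

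Genes that keep and express mitochondrial DNA were mostly lower at T1 in the validation set, with a median change of -0.43. Of 36 listed, 31 were tested. Beside 23.9% and 20.3% of all gene names tested, 17 of the 31 were called lower and 2 higher. Proteins that bind or process the RNA were among them, such as TBRG4, which changed by -0.86 (SE 0.13, adjusted p 3.1e-05 in limma), FASTK by -0.69 (SE 0.14, adjusted p 0.000628), FASTKD3 by -0.96 (SE 0.20, adjusted p 0.000577) and FASTKD2 by -0.57 (SE 0.14, adjusted p 0.00287). GRSF1, LRPPRC and SUPV3L1, which bind or degrade mitochondrial transcripts, changed by -0.43, -0.35 and -0.54. FASTKD1 (-0.21, adjusted p 0.191) and FASTKD5 (0.22, adjusted p 0.164) of the FASTK family, SLIRP (-0.15, adjusted p 0.533), the partner of LRPPRC, and PNPT1 (-0.07, adjusted p 0.765), the partner of SUPV3L1, did not pass, and these 4 are named after their values were seen. The enzymes that cut tRNAs from the precursor fell too, with -1.01 for ELAC2, -0.47 for PRORP, -0.59 for TRMT10C and -0.56 for HSD17B10 and adjusted p from 0.00196 to 0.0137. Also lower were the methyltransferase TFB1M, MTERF2 and MTERF4, the DNA polymerase POLG, the exonuclease MGME1 and the co-activator PPARGC1B, with changes from -0.99 to -0.38. Others of the list did not pass, such as PPARGC1A (0.61, adjusted p 0.0994 in limma) and TFB2M (0.08, adjusted p 0.768). TFAM (-0.31, adjusted p 0.102), TEFM (-0.40, adjusted p 0.0712) and NRF1 (-0.06, adjusted p 0.836) did not pass either. They too are named after their values were seen. The 2 that were called higher were POLG2, the accessory subunit of the polymerase POLG, by 1.18 (SE 0.19, adjusted p 6.56e-05), and GABPA, a transcription factor of nuclear respiratory genes, by 0.31 (SE 0.11, adjusted p 0.0296). In the experimental set POLG2 was higher by 1.57 (SE 0.33, adjusted p 0.0239) and MGME1 lower, with a change of -1.29 (SE 0.31, adjusted p 0.0373), and no other gene of the list passed.

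The changes of the members in the 2 sets could not be told apart. The change in the experimental set minus that in the validation set was -0.18 for ND5 (SE 0.44, 95% interval -1.09 to 0.72) and 0.11 for ND6 (SE 0.44, 95% interval -0.80 to 1.02). For the other 5 it lay between -0.12 and 0.28. No gene name was called in this comparison by limma (0.0% of 17889), and 99 had an unadjusted p below 0.05, so intervals of this width leave room for sizeable differences.

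Blood is a mixture, and with bulk RNA fewer cells of a type and less RNA per cell cannot be told apart. Marker lists of blood cells moved with the ride, and their part in the member changes was not tested. Over all gene names tested, 23.9% were called lower and 20.3% higher in the validation set, and 3.95% and 6.16% in the experimental set. The summed level of the T cell markers, 9 of 10 on the array, ranged from 3.75 to 5.09 at T0 and from 2.88 to 4.02 at T1 in the validation set, and 9 of 9 tested were lower. Of the B cell markers, 7 of 8 on the array, the summed level ranged from 3.44 to 4.67 and from 1.84 to 3.80, and 6 of 7 were lower. The neutrophil markers, 6 of 10 on the array, ranged from 6.74 to 9.33 and from 8.59 to 10.8, and 6 of 6 were higher. Of the same lists, 6 of 9 T cell and 3 of 7 B cell markers were lower and 4 of 6 neutrophil markers higher in the experimental set. Natural killer cell markers were lower in 5 of 8 and higher in 1, monocyte markers higher in 2 of 4 and granule markers of immature neutrophils higher in 4 of 5 in the validation set. Of the platelet markers, which would mark a source of mitochondria without nuclei, 4 of 8 were on the array, and their summed level ranged from -2.63 to -1.06 at T0 and from -2.42 to -0.72 at T1. The red cell markers SLC4A1 and EPB42 were not above background on any array. The summed level of the red cell markers, 6 of 8 on the array, ranged from 3.66 through a median of 4.296 to 8.35 at T0 and from 5.41 through 7.201 to 9.80 at T1 in the validation set, and the median went from 3.91 to 6.89 in the experimental set, with 1 of 3 tested higher in each set.

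Between 60.4% and 75.4% of spots were well above background, and 25 arrays had no saturated spot, while the validation array of horse 34 at T1, scanned in 1 pass instead of 2, had 431. The validation array of horse 47 at T0 had the lowest level of its group for 7 of 7 members. Without horse 34 alone ND5 changed by -0.94 and ND6 by -0.89, and without horse 47 alone by -0.9997 and -0.96. Without both horses ND5 changed by -1.04 and ND6 by -0.98 (adjusted p 0.000506 and 0.00157 in limma), and ND4 passed with -0.52 (adjusted p 0.0241). Arrays were scanned on 8 days, 5 of which held validation samples of both times: ND5 was lower at T1 on 5 of 5, with differences from -1.29 to -0.28, and ND6 on 4 of 5, with differences from -1.65 to 0.35. The other 5 members were lower on 3 of 5. Each of these days held only 1 or 2 validation horses at T0 and 1 to 4 at T1. Within the 3 slides that held both times, ND5 differed by between -1.44 and -0.0057 and ND6 by between -1.67 and -0.31. With scan day as a term ND5 and ND6 changed by -0.72 and -0.84 (adjusted p 0.0218 and 0.016 in limma), and ND1, ND2, ND3, ND4 and ND4L by -0.15, -0.051, -0.20, -0.23 and -0.20 (adjusted p from 0.262 to 0.806).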

How the data were processed

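Blood RNA from 26 samples was labelled with Cy3 and hybridised to custom 4x44K arrays, and the authors deposited the scanner files of Agilent Feature Extraction 10.7.3.1, whose intensity columns (gProcessedSignal, gMeanSignal, gBGMedianSignal) were used, together with a table of log2 values per spot that the authors deposited, which matched quantile normalized background-subtracted signals; the submitters' notes name limma. The main values were log2 of gProcessedSignal minus the 75th percentile of each array. Control spots and outlier-flagged spots were left out and spots of a probe averaged, and the brightest probe stood for a gene name. Tests were fitted over all gene names with limma 3.58.1 (lmFit and eBayes, R 4.3.3), Benjamini-Hochberg adjusted at 0.05, two-sided. In the experimental set the horse was a fixed block, with gene names well above background on at least 3 of 6 arrays; in the validation set at least 7 of 20, without a block; the difference between sets was fitted on 26 arrays, blocking on the horse as a random effect (at least 7 of 26). Same-horse samples came from the same animal; their deviations from the group means correlated by -0.01, 0.21 and 0.19. Within-array differences were tested by exact permutation over 77520 assignments of the horses, and relations between horses by exact or 100000 random permutations. Of 24415 gene names, 14582 had a symbol, through the RefSeq gene table of a newer horse assembly, from which no coordinate was taken. The fits were tested on simulated data. Array numbers limit the precision. Genes were named by a written rule: the members and their probes, the other mitochondrial mRNAs and rRNAs, the nuclear core subunits, those of the maintenance list that passed, and the 5 nearest gene names of each member; some of these are not reported here. The members and lists were chosen with earlier results of these data known.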

Additional observations from a re-analysis of the deposited data

How the results depend on the processing

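In the validation set ND5 and ND6 stayed below 0 and past the threshold under all 31 alternatives, 20 of which left out 1 horse. ND1, ND2, ND3 and ND4 passed after normexp with quantile normalization (-0.56, -0.33, -0.47 and -0.66), after quantile normalization (-0.56, -0.36, -0.52 and -0.67) and in the deposited series values (-0.55, -0.33, -0.45 and -0.64), while ND4 also passed with the stricter filter (-0.42), where fewer gene names are tested, and without T0 horse 47 and T1 horse 34 together (-0.52). In contrast, ND4 was -0.23 with scan day as a term and -0.20 with the mean of all probes (adjusted p 0.262 and 0.344 in limma). Scan day as a term also took ND1 to -0.15, ND2 to -0.051 and ND4L to -0.20, and the mean of all probes took ND1 to -0.14 and ND2 to -0.051. Leaving out 1 horse, ND4 ranged from -0.51 to -0.35 and passed without T1 horse 19 (-0.46), T1 horse 21 (-0.49) or T0 horse 47 (-0.51). In the experimental set ND5 passed under the same 3 scalings (-1.25, -1.33 and -1.28) and with the stricter filter (-1.08), and ND2 turned to -0.059, -0.16 and -0.048 under the 3 scalings. Without the replicate block the experimental changes kept their side of the threshold, with -1.08 for ND5 and -0.76 for ND6, and 1785 gene names were called instead of 1768. The block changed no member's call, nor any in the difference between the sets. Leaving out 1 experimental horse gave ranges of -0.43 to 0.24 for ND1, -0.074 to 0.35 for ND2, -0.68 to 0.11 for ND3 and -0.80 to 0.014 for ND4L, where ND1, ND3 and ND4L turned positive without horse 2 and ND2 turned negative without horse 32.

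The difference between the sets, which passed for no member, turned for ND1 with the mean of all probes (-0.18) and for ND4 after normexp with quantile normalization (-0.14), quantile normalization (-0.080), in the deposited values (-0.14) and with the mean of all probes (-0.43). Leaving out 1 experimental horse it ranged from -0.15 to 0.53 for ND1, -0.44 to 0.35 for ND3, -0.17 to 0.41 for ND4, -0.44 to 0.37 for ND4L, -0.38 to 0.074 for ND5 and -0.12 to 0.37 for ND6. It changed sign without horse 2 for ND3, ND4L and ND5, without horse 32 for ND1, and without horse 41 for ND4, ND4L and ND6. Of the single probes, ND2 Oligo-257 turned in the experimental set (-0.059 and -0.16 under the 2 scalings run), and in the validation set ND1 Oligo-256 turned under both (-0.092 and -0.093) and ND4 Oligo-262 after quantile normalization (-0.034).

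The within-array shifts of ND3 minus ND5, ND3 minus ND6 and ND5 minus the nuclear core mean lost the threshold after normexp with quantile normalization (0.50, 0.44 and -0.45), after quantile normalization, chosen after seeing the data (0.53, 0.46 and -0.49), and without horses 47 and 34 (0.68, 0.62 and -0.56). Leaving out 1 validation horse, also chosen after seeing the data, they ranged from 0.55 to 0.72, 0.52 to 0.69 and -0.53 to -0.38. The first 2 missed the threshold without any 1 of the 7 T0 horses or of T1 horses 8, 19, 44 and 62, and the last also without T1 horse 24 or 55. Shifts that never passed changed sign for ND1 minus the core mean (-0.030 and -0.0011 under the 2 scalings), for ND4L minus the core mean (-0.0014 after normexp, -0.10 without horses 47 and 34, -0.047 to 0.17 leaving out 1 horse), for ND4 minus the core mean (-0.091 to 0.064) and for ND5 minus ND6 (-0.089 to 0.031).

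Over all gene names, 1768 were called in the experimental set, 46 without a filter, 2816 with the stricter filter, 2991 with 26 arrays in 1 fit and 173, 289 and 2978 without horse 2, 32 and 41. The cause of these shifts was not tested. Probes near background, such as ND6 Oligo-267, limit how small a level can be read.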

Other observations

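The array also carries probes for mitochondrial tRNAs, of which the report names only that for glutamate, and those below were singled out after their values were seen. Of 18 tRNA names tested in the validation set 2 were called lower and 1 higher, beside 44.2% of all gene names called in either direction. In the validation set the tRNAs for valine (-0.74, SE 0.19, adjusted p 0.00276 in limma) and glutamate (-0.67, SE 0.20, adjusted p 0.00906) were lower at T1, and that for methionine was higher (0.64, SE 0.22, adjusted p 0.0245). In the experimental set their changes were -1.06, -0.68 and 0.65, with adjusted p of 0.0715, 0.213 and 0.347. The tRNA for glutamate lies next to ND6 and that for valine between the ribosomal RNAs. The tRNA for histidine had an SD of 1.72 among the 7 horses at T0 and 1.58 among the 13 at T1, against at most 0.63 for the probe that stands for any member in these groups, and its change was -0.01 (SE 0.70).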
